A study of Homo sapiens with 4 samples.

Results

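MYOF, NT5E, GADD45A, DOCK5, ARHGEF17, FOXF2, FJX1, TGFB2, CRIM1 and IGFBP3 are 10 genes of a published YAP/TAZ target signature, described here by the open chromatin around them. The assay was ATAC-seq, which uses a transposase to tag accessible DNA. The cells were Huh7, an established line from a human hepatocellular carcinoma, with a hairpin RNA against ARID1A (shARID1A) or a control hairpin (shControl), and they were kept for 6 h in 100 nM rapamycin or in its vehicle DMSO. The 4 groups, shARID1A rapamycin, shARID1A DMSO, shControl rapamycin and shControl DMSO, held 1 library each, made from the nuclei of 50000 cells, and every library is represented by its own peak list on GRCh38. Whether the hairpin lines were pools or single clones was not given in the sources used here.

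A peak was assigned to a gene if the authors' nearest-gene column named it or if the centre of the peak lay within 50 kb of the gene's transcription start site (TSS). This gave 39 of 44760 peaks in shARID1A rapamycin, 46 of 45700 in shARID1A DMSO, 55 of 49783 in shControl rapamycin and 56 of 52192 in shControl DMSO. Merging the peaks that overlap between lists gave 67 regions, of 69838 in the whole series. The genes are 10 of 18448 protein-coding genes with a TSS, and they count as selected on the peak numbers, promoter peaks and list patterns of these same data, which were known when the genes were chosen. The values below therefore describe the genes, with no test. With 1 library per group there is no spread between cultures, and the 95% intervals cover counting error only. The closest peaks inside the 50 kb window lay at 45567 bp from the DOCK5 start, 48347 bp from the CRIM1 start and 48952 bp from the IGFBP3 start, and the closest outside it at 50640 and 50687 bp from the ARHGEF17 start and 51226 bp from the GADD45A start.

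YAP and its paralogue TAZ are coactivators that the Hippo kinases LATS1 and LATS2 hold in the cytoplasm when cells are dense. In the nucleus they bind DNA through the TEAD factors, whose core motif is GGAATG, often at enhancers that lie away from promoters. Hippo signalling restrains liver growth in mice. ARID1A is a DNA-binding subunit of BAF, a SWI/SNF complex that moves nucleosomes, and ARID1A-containing BAF has been reported to bind YAP and TAZ. Rapamycin inhibits the kinase complex mTORC1.

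The RefSeq table of GRCh38.p14 held the promoters of 6 of the 10 genes, and the 250 bases before the start are shown for 4 of them, as examples of promoters covered in every list and of promoters hardly covered in any. TGFB2 (chr1:218345086-218345335, plus strand) and MYOF (chr10:93482335-93482584, minus strand) lay under a peak over all 250 bases in every list. FOXF2 (chr6:1389326-1389575, plus strand) and FJX1 (chr11:35618210-35618459, plus strand) lay almost wholly outside peaks. Sequences run 5′ to 3′ on the strand of the gene, and capitals mark GGAATG or its reverse complement CATTCC.
TGFB2: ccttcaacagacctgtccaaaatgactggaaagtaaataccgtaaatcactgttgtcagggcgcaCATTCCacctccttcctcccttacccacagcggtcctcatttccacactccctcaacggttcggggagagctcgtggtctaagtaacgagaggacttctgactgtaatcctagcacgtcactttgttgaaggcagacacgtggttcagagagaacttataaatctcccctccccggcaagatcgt
MYOF: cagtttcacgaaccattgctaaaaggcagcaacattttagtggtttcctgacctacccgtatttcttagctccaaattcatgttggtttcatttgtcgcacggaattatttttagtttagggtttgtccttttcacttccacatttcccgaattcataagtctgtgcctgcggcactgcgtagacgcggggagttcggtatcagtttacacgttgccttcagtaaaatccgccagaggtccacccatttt
FOXF2: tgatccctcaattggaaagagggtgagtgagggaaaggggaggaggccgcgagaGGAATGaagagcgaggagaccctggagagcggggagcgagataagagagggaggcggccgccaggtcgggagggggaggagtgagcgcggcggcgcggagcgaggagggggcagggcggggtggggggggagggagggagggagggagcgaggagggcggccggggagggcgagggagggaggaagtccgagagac
FJX1: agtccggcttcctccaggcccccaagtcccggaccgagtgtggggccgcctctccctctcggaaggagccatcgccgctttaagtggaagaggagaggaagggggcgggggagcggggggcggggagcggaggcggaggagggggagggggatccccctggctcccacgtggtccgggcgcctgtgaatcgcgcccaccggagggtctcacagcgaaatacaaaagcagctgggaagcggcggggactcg
The motif was found once in the TGFB2 window, 185 bp before the start, and once in the FOXF2 window, 196 bp before the start, while these letters did not occur in the other 4 windows. A match is a description of the letters and no evidence of binding, and 10.1% of 15843 promoter windows of the same length hold one on either strand. The AP-1 motif TGANTCA, searched on both strands, occurred in none of the 6 windows and in 5.04% of the 15843. In FOXF2, 40 of the 250 bases were covered by a peak, in shControl DMSO alone, and the peak ended before the motif. In FJX1 0 of the 250 bases were covered in any list. The TGFB2 and MYOF windows held 50.4% and 44.4% G and C with 11 and 12 CpG, against 70.8% and 70.4% with 20 and 22 CpG in FOXF2 and FJX1. The NT5E window, under a peak over at least 246 of its 250 bases in every list, held 75.2% with 28 CpG.

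The shARID1A lists were the shorter ones as wholes, as they were for the genes. Peaks covered 35.1 Mb in shARID1A rapamycin, 38.3 Mb in shARID1A DMSO, 40.7 Mb in shControl rapamycin and 39.9 Mb in shControl DMSO, and the read depth behind the lists is unknown. The peak numbering skipped 6666 numbers (12.7%) in shARID1A DMSO and 1093 (2.15%) in shControl rapamycin, and 0 in the other two lists. Their meaning was not given in the sources used here. Among the hepatocyte markers, APOA1, APOB, HNF4A and CEBPA had a promoter peak in every list, while ALB and AFP had none within 1 kb of their start in any. A promoter peak was found at 0 to 2 of 5 leukocyte markers, 0 or 1 of 5 endothelial markers and 2 or 3 of 4 markers of stellate cells and fibroblasts, depending on the list. The knockdown could not be checked here, since a hairpin acts on the transcript and not on the gene's chromatin.

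In the text that follows, positions are those of a region's centre relative to the TSS, in kb, negative upstream and positive downstream. Ranks are places by the authors' peak score within a list, in percent of the list length, so that a low percentage means a strong peak. Ranks of lists of different length show no change, and they are set side by side as descriptions.

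**Figure D1:**
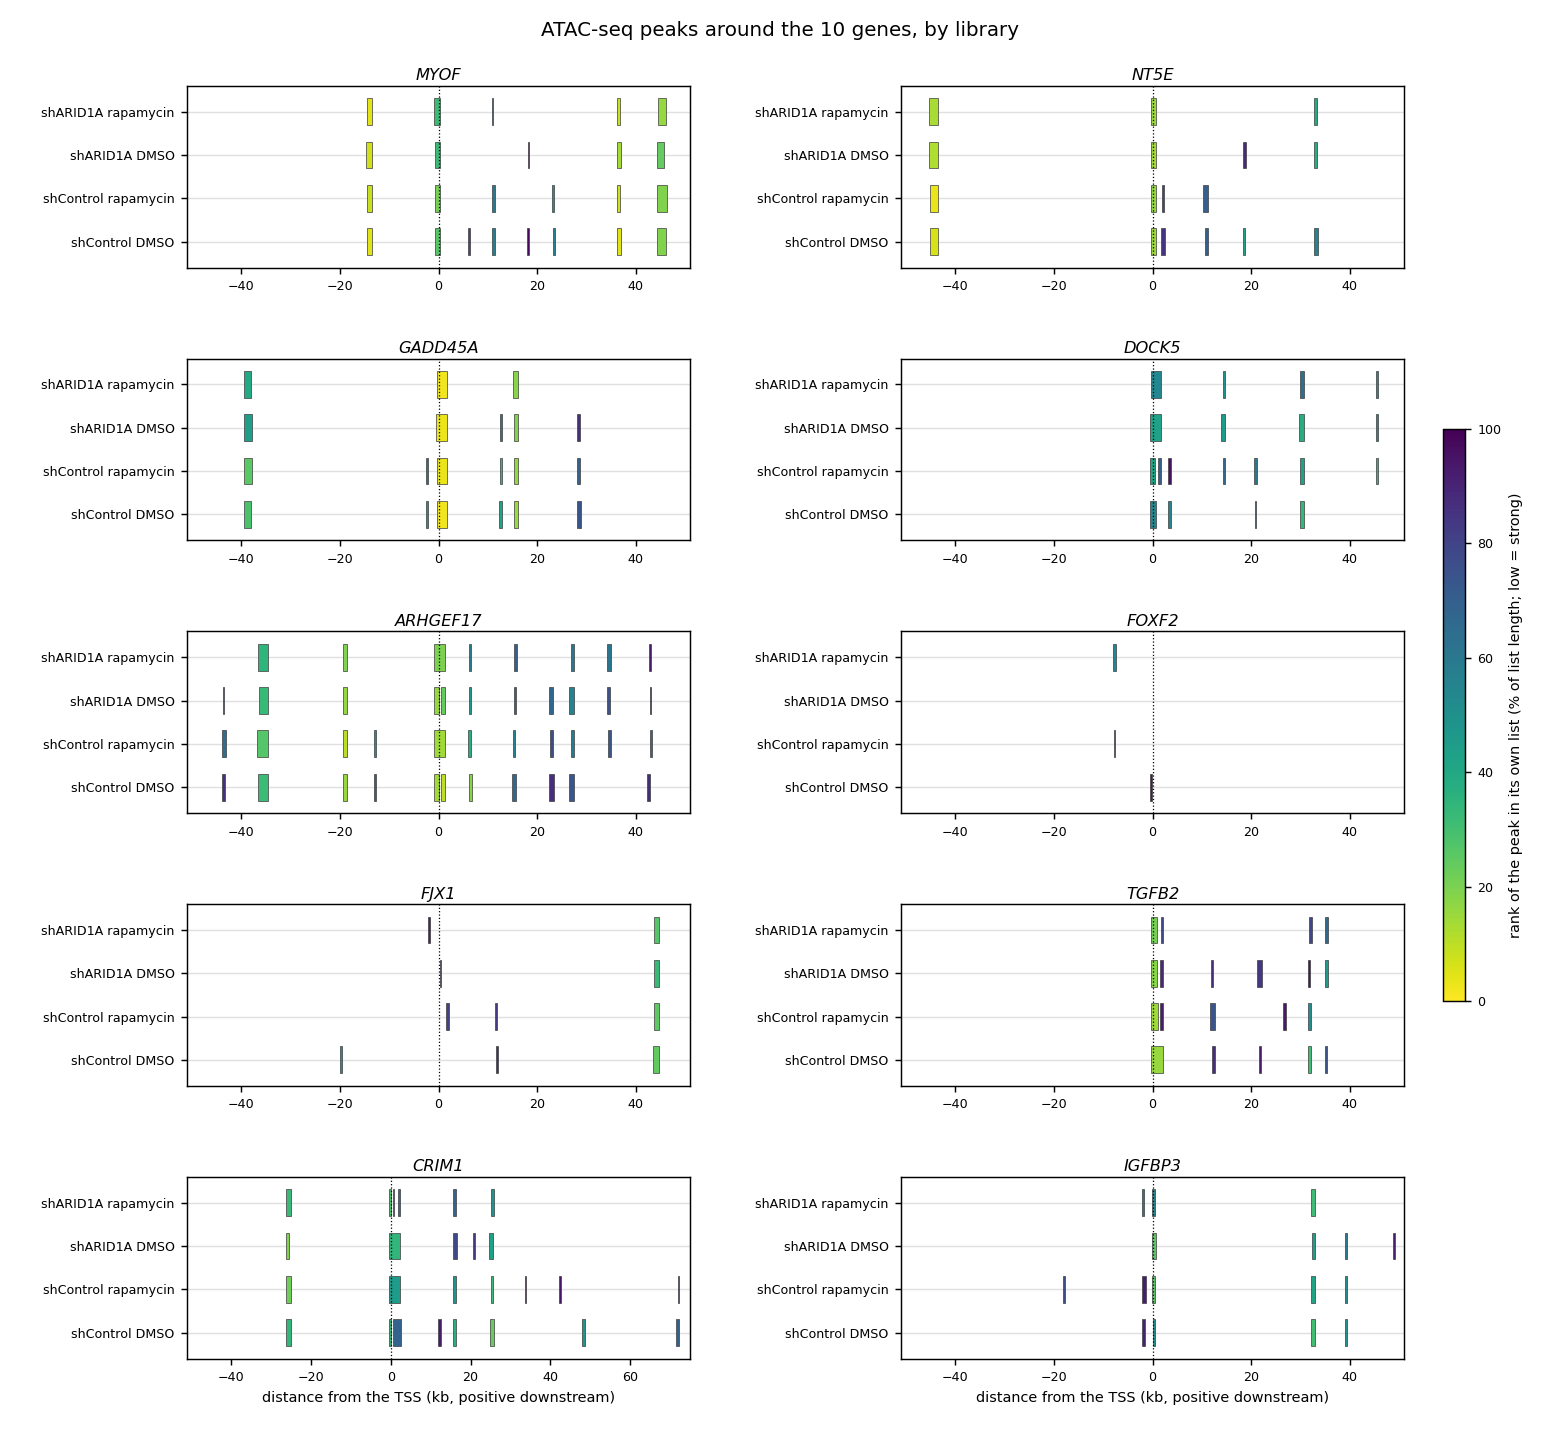
Peaks at each of the 10 genes in the 4 lists, by distance from the TSS in kb (horizontal, positive downstream), with a line of boxes for each library, from shARID1A rapamycin at the top to shControl DMSO at the bottom. Colour is the rank within the list in percent. Promoter peaks line up across all lists at 8 genes, while many of the dark, low-scoring boxes between them are present in some lists and absent from others.

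TGFB2 encodes a secreted ligand of the TGF-beta family. It had 4 peaks in shARID1A rapamycin, 6 in shARID1A DMSO, 5 in shControl rapamycin and 5 in shControl DMSO. Its promoter region ranked at 21.0% in shARID1A rapamycin and 17.6% in shARID1A DMSO, against 14.5% in shControl rapamycin and 15.6% in shControl DMSO. The promoter was thus open and among the stronger peaks in every library, but its nearest gene was given as the antisense TGFB2-AS1 in all lists except shControl DMSO, and it was written as 2 peaks in those lists and as 1 in shControl DMSO. As merged regions TGFB2 had 3 in shARID1A rapamycin and 5 in shARID1A DMSO, against 4 in shControl rapamycin and 5 in shControl DMSO. A region in intron 2, at +31.9 kb, was present in all lists, at 78.7% in shARID1A rapamycin and 94.3% in shARID1A DMSO, against 50.6% in shControl rapamycin and 30.6% in shControl DMSO. A second region of that intron, chr1:218380376-218380938, was missing in shControl rapamycin alone and ranked at 66.1% in shARID1A rapamycin, 45.2% in shARID1A DMSO and 74.6% in shControl DMSO. The weak region at +12.2 kb was missing in shARID1A rapamycin alone.

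CRIM1 encodes a transmembrane protein that binds bone morphogenetic proteins. It had 6 peaks in shARID1A rapamycin, 5 in shARID1A DMSO, 7 in shControl rapamycin and 8 in shControl DMSO. The promoter region was open in all lists, at 28.4% in shARID1A rapamycin and 34.6% in shARID1A DMSO, against 45.5% in shControl rapamycin and 33.4% in shControl DMSO. It was written as 3 peaks in shARID1A rapamycin, 2 in shControl DMSO and 1 in the other lists, so that the order of the shARID1A libraries depends on how a wide promoter was divided. As merged regions CRIM1 had 4 in shARID1A rapamycin and 5 in shARID1A DMSO, against 7 in shControl rapamycin and 7 in shControl DMSO. The region at -25.7 kb was the strongest distal one in all lists but shControl DMSO, with ranks between 19.2% in shARID1A DMSO and 34.1% in shControl DMSO, and it showed no order by genotype. Both intron 1 regions of all lists ranked weaker in the shARID1A lists. That at +16.0 kb lay at 69.0% in shARID1A rapamycin and 78.2% in shARID1A DMSO, against 48.1% in shControl rapamycin and 36.4% in shControl DMSO. At +25.3 kb the ranks were 48.7% in shARID1A rapamycin and 42.9% in shARID1A DMSO, against 32.3% in shControl rapamycin and 23.2% in shControl DMSO. A further region in intron 2, at +72.0 kb, was present in the shControl lists only. Another, chr2:36403800-36404451, was present in shControl DMSO alone, at 47.9%, and is 1 of 5 CRIM1 regions found in a single list.

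IGFBP3 encodes a secreted carrier of insulin-like growth factors. It had 3 peaks in shARID1A rapamycin, 4 in shARID1A DMSO, 5 in shControl rapamycin and 4 in shControl DMSO. The promoter peak was present in all lists, at 54.3% in shARID1A rapamycin and 25.1% in shARID1A DMSO, against 26.0% in shControl rapamycin and 49.6% in shControl DMSO. Its rank was thus near the middle of the list in 1 library of each genotype and higher up in the other. The strongest distal region, at +32.6 kb, lay in exon 1 of the neighbouring IGFBP1, which encodes another such carrier made by the liver, and ranked between 30.3% and 44.6% in all lists. A region close to IGFBP1, chr7:45881746-45882322, was missing in shARID1A rapamycin alone, and ranked at 59.1% in shARID1A DMSO, 51.8% in shControl rapamycin and 48.7% in shControl DMSO. A region at -1.7 kb was missing in shARID1A DMSO alone.

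FJX1 is the human homologue of Drosophila four-jointed, a Golgi kinase that acts on the cadherins Fat and Dachsous upstream of the fly Hippo pathway. It had 2 peaks in shARID1A rapamycin, 2 in shARID1A DMSO, 3 in shControl rapamycin and 3 in shControl DMSO. Its own start was open in no stable way: a peak lay at -1.9 kb in shARID1A rapamycin alone (91.7%), at +0.4 kb in shARID1A DMSO alone (78.8%) and at +1.8 kb in shControl rapamycin alone (81.0%), and shControl DMSO had none within 10 kb. The region at -1.9 kb falls in a stretch where the numbering of shARID1A DMSO skips 1 number. The single region found in all lists, at +44.1 kb, is the promoter of the neighbouring gene TRIM44, at 26.6% in shARID1A rapamycin and 32.5% in shARID1A DMSO, against 24.8% in shControl rapamycin and 24.5% in shControl DMSO. A weak region at +11.7 kb was present in the shControl lists only.

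FOXF2, a forkhead transcription factor of mesenchymal tissue, had 1 peak in shARID1A rapamycin, 0 in shARID1A DMSO, 1 in shControl rapamycin and 1 in shControl DMSO. It had the fewest peaks of the 10 genes in every list. The peak in shControl DMSO was the promoter peak, at 94.2% among the weakest of its list, and that of both rapamycin libraries lay at -7.7 kb, at 54.0% in shARID1A rapamycin and 83.1% in shControl rapamycin. Both regions fall in a stretch where the numbering of shARID1A DMSO skips 1 number.

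NT5E encodes CD73, the surface enzyme that makes adenosine from AMP. It had 3 peaks in shARID1A rapamycin, 4 in shARID1A DMSO, 4 in shControl rapamycin and 6 in shControl DMSO. The promoter ranked at 14.9% in shARID1A rapamycin and 13.7% in shARID1A DMSO, against 16.1% in shControl rapamycin and 14.6% in shControl DMSO. The strongest NT5E region in every list lay upstream, at -44.4 kb, nearest to LINC02535, at 13.1% in shARID1A rapamycin and 11.8% in shARID1A DMSO, against 3.22% in shControl rapamycin and 5.94% in shControl DMSO. Both regions of intron 1, at +2.1 and +10.8 kb, were present in the shControl lists only, at 80.3% and 70.0% in shControl rapamycin and 84.7% and 69.8% in shControl DMSO. In intron 2, chr6:85468423-85468931 was found in the DMSO libraries only, at 88.4% in shARID1A DMSO and 43.5% in shControl DMSO. In intron 3, chr6:85482798-85483708 was missing in shControl rapamycin alone, and ranked at 39.2% in shARID1A rapamycin, 37.5% in shARID1A DMSO and 55.1% in shControl DMSO.

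MYOF encodes myoferlin, a ferlin of membrane fusion and repair. It had 5 peaks in shARID1A rapamycin, 5 in shARID1A DMSO, 6 in shControl rapamycin and 8 in shControl DMSO. The promoter peak ranked at 31.7% in shARID1A rapamycin and 32.1% in shARID1A DMSO, against 20.8% in shControl rapamycin and 26.3% in shControl DMSO. The strongest region of the gene itself was not the promoter but lay in intron 3, at +36.6 kb, at 7.84% in shARID1A rapamycin, 13.5% in shARID1A DMSO, 7.58% in shControl rapamycin and 4.73% in shControl DMSO. A neighbour in the same intron, at +45.2 kb, was also in every list. In both shARID1A libraries the promoter of the neighbour CEP55, at -14.0 kb, stood above it, and ranked at 4.45% in shARID1A rapamycin and 7.19% in shARID1A DMSO, against 8.37% in shControl rapamycin and 4.90% in shControl DMSO. Intron 1 held the variable regions: +23.3 kb was present in the shControl lists only, at 50.1% in shControl rapamycin and 56.6% in shControl DMSO, +11.2 kb was missing in shARID1A DMSO alone, +18.2 kb was present in the DMSO libraries only and +6.2 kb in shControl DMSO only.

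DOCK5 encodes an exchange factor for the small GTPase Rac. It had 4 peaks in shARID1A rapamycin, 4 in shARID1A DMSO, 7 in shControl rapamycin and 4 in shControl DMSO. All its regions away from the start lay in intron 1. The promoter region lay near the middle of each list, at 54.2% in shARID1A rapamycin and 42.4% in shARID1A DMSO, against 40.9% in shControl rapamycin and 53.6% in shControl DMSO. It was written as 2 peaks in shControl rapamycin, where the 7 peaks made 6 merged regions, and as 1 in the other lists. The other region of all lists, at +30.2 kb, ranked at 64.3% in shARID1A rapamycin, 38.0% in shARID1A DMSO, 42.4% in shControl rapamycin and 33.5% in shControl DMSO. The remaining 4 regions split evenly: those at +3.4 and +20.8 kb were present in the shControl lists only, and 2 others were missing in shControl DMSO alone. Of these, chr8:25198547-25199457 ranked higher up in the shARID1A lists, at 49.5% in shARID1A rapamycin and 45.1% in shARID1A DMSO, than in shControl rapamycin. The other, chr8:25230039-25230474, ranked at 52.8% in shARID1A rapamycin and 53.1% in shARID1A DMSO, against 35.4% in shControl rapamycin.

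ARHGEF17 encodes a guanine nucleotide exchange factor. It had the most peaks of the 10 genes, with 8 in shARID1A rapamycin, 11 in shARID1A DMSO, 11 in shControl rapamycin and 11 in shControl DMSO. Of its 11 regions 7 were in all lists. The promoter region ranked at 19.5% in shARID1A rapamycin and 15.7% in shARID1A DMSO, against 14.2% in shControl rapamycin and 9.78% in shControl DMSO. It was written as 2 peaks in both DMSO lists and as 1 in the rapamycin lists. The 9.78% belongs to a peak centred 918 bp after the start, and the other promoter peak of shControl DMSO ranked at 13.9%. The strongest distal region in every list lay in an intron of the neighbour P2RY6, at -19.0 kb, with ranks of 19.4% in shARID1A rapamycin and 16.3% in shARID1A DMSO, against 10.4% in shControl rapamycin and 15.3% in shControl DMSO. Its nearest gene was ARHGEF17 in both shARID1A lists and P2RY6 in both shControl lists, although all 4 lists held the peak. At this region alone, a count by nearest gene would thus differ between genotypes. Over all regions of ARHGEF17 that count was 2 in shARID1A rapamycin, 2 in shARID1A DMSO, 2 in shControl rapamycin and 3 in shControl DMSO. In intron 1, the region at +6.4 kb ranked at 58.4% in shARID1A rapamycin and 45.4% in shARID1A DMSO, against 37.2% in shControl rapamycin and 18.1% in shControl DMSO. The region at -12.9 kb was present in the shControl lists only, those at -43.5 and +22.9 kb were missing in shARID1A rapamycin alone, and that at +34.5 kb, which the authors annotate as an internal ARHGEF17 promoter, was missing in shControl DMSO alone.

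GADD45A encodes a stress-induced protein of growth arrest. It had 3 peaks in shARID1A rapamycin, 5 in shARID1A DMSO, 6 in shControl rapamycin and 6 in shControl DMSO. The region over its start and intron 1, chr1:67684606-67686906, was the strongest of all 67 regions in each list except shControl rapamycin, at 2.25% in shARID1A rapamycin, 2.89% in shARID1A DMSO, 3.51% in shControl rapamycin and 2.09% in shControl DMSO. In shControl rapamycin the NT5E region at -44.4 kb stood above it. The strongest distal region, at +15.7 kb and at the end of GNG12, ranked at 17.6% in shARID1A rapamycin and 18.9% in shARID1A DMSO, against 16.2% in shControl rapamycin and 15.0% in shControl DMSO. The region at -2.3 kb was present in the shControl lists only, at 64.4% in shControl rapamycin and 51.1% in shControl DMSO. A pair of regions downstream was missing in shARID1A rapamycin alone. Of these, chr1:67697523-67698136 ranked at 60.6% in shARID1A DMSO, 33.9% in shControl rapamycin and 41.9% in shControl DMSO, the strongest of the 40 regions that any library lacked.

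**Figure D2:**
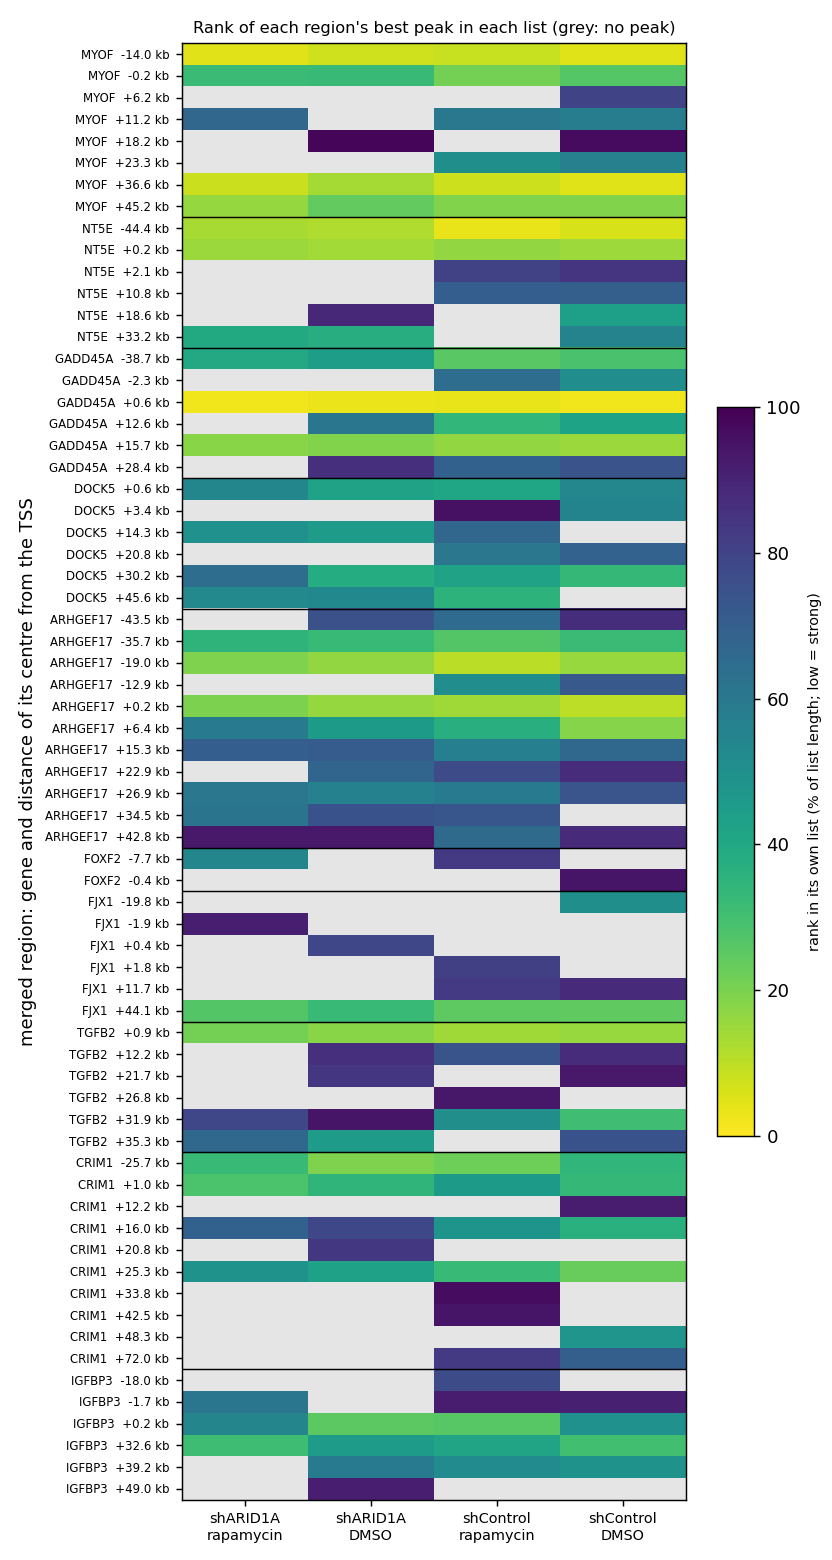
Rank of the best peak of each of the 67 regions within each list, in percent of the list length (colour, yellow strong, dark weak), with grey where the list had no peak. Columns run from shARID1A rapamycin to shControl DMSO and lines are ordered by gene and position. The 27 regions without grey include most of the yellow and green ones, with a median best rank of 23.2%, while the 9 regions with grey in both shARID1A columns and none in the shControl columns have a median best rank of 60.2%.

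Promoters held a peak in every list at most of the genes. A peak centred within 1 kb of the TSS was found at 8 of the 10 genes in shARID1A rapamycin (background 63.6% of 18448 genes), 9 in shARID1A DMSO (64.5%), 8 in shControl rapamycin (63.9%) and 9 in shControl DMSO (63.5%). In all lists 8 had one, against 60.1% of all genes, and since these values took part in the choice of the genes nothing is read from the difference, nor from the backgrounds of the counts that follow. The exceptions were FJX1, with one in shARID1A DMSO only, and FOXF2, with one in shControl DMSO only. By the authors' distance to the nearest start of any gene, 15 of the 67 regions lay within 1 kb of one, and 11 of these were in all lists, where 81.8% of all such regions were. Of the 52 distal regions 16 were in all lists, where 34.5% of all distal regions were.

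With ARID1A knockdown in DMSO, 6 genes had fewer peaks within 50 kb in shARID1A DMSO than in shControl DMSO, namely MYOF, NT5E, GADD45A, FOXF2, FJX1 and CRIM1. The background was 33.4% of 17040 genes. Gene backgrounds of a comparison, here and below, are over genes with a peak within 50 kb in either of its lists. TGFB2 alone had more (background 24.5%), and DOCK5, ARHGEF17 and IGFBP3 had equal numbers. The 46 peaks in shARID1A DMSO against 56 in shControl DMSO gave a log2 ratio of -0.28 (95% interval -0.88 to 0.30), an interval that holds 0. The whole lists also differed in length, with 45700 peaks in shARID1A DMSO and 52192 in shControl DMSO. Of the peaks of shControl DMSO at these genes, 17 of 56 had no overlapping peak in shARID1A DMSO and so were lost, or 30.4% (18.8 to 44.1), where the share over the whole list was 27.6%. Conversely 7 of the 46 peaks of shARID1A DMSO, or 15.2% (6.34 to 28.9), were gained, where the whole list had 17.7%. Both intervals hold the share of the whole list. With the same number of top-scored peaks from every list the log2 ratio was -0.03 (-0.66 to 0.59).

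With knockdown under rapamycin, 8 genes had fewer peaks in shARID1A rapamycin than in shControl rapamycin (background 33%), 0 had more (background 22.7%), and FOXF2 and CRIM1 had equal numbers. The 39 peaks in shARID1A rapamycin against 55 in shControl rapamycin gave a log2 ratio of -0.50 (-1.13 to 0.12), which also holds 0. The whole lists held 44760 peaks in shARID1A rapamycin and 49783 in shControl rapamycin. With the same number of top-scored peaks from every list the log2 ratio was -0.33 (-0.97 to 0.31). Lost peaks were 20 of 55, or 36.4% (23.8 to 50.4), against 26.7% over the whole list. Gained peaks were 3 of 39, or 7.69% (1.62 to 20.9), against 17.9%, and were those of FJX1 at -1.9 kb, NT5E at +33.2 kb and TGFB2 at +35.3 kb. Both shares again have intervals that hold the value of the whole list. All 20 lost peaks were distal by the authors' distance to the nearest start, as were 12470 of the 13299 lost peaks of the whole list. The 20 made 46.5% (31.2 to 62.3) of the 43 distal peaks, against 33.8% over the list, a value inside the interval. Fewer peaks in both treatments were found for MYOF, NT5E, GADD45A and FJX1, a count of 4 against a background of 13.6%, and more in both for 0 genes, against 7.59%. Both of these backgrounds are over 17250 genes with a peak within 50 kb in any list. The knockdown comparisons share no library.

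Neither comparison of rapamycin with DMSO gave a log2 ratio whose interval lacked 0. In shARID1A cells 5 genes had fewer peaks in rapamycin than in DMSO (NT5E, GADD45A, ARHGEF17, TGFB2 and IGFBP3; background 31.2%) and 2 had more (FOXF2 and CRIM1; background 22%), with a log2 ratio of -0.24 (-0.89 to 0.41). Lost peaks were 12 of 46, or 26.1% (14.3 to 41.1), against 21.2%, and gained peaks 4 of 39, or 10.3% (2.87 to 24.2), against 19.3%. With equal numbers of top-scored peaks the log2 ratio was -0.21 (-0.86 to 0.44), and in the stronger 50% of each list -0.38 (-1.30 to 0.52). In these settings knockdown gave -0.03 and -0.11 in DMSO, and -0.33 and -0.32 under rapamycin. Every one of these intervals holds 0. In shControl cells 3 genes had fewer peaks in rapamycin (MYOF, NT5E and CRIM1; background 31%) and 2 had more (DOCK5 and IGFBP3; background 23.4%), with a log2 ratio of -0.03 (-0.59 to 0.54). Lost peaks were 11 of 56, or 19.6% (10.2 to 32.4), against 21.7%, and gained peaks 11 of 55, or 20.0% (10.4 to 33.0), against 18.5%. With equal numbers of top-scored peaks the log2 ratio in shControl cells was 0.09, and in the stronger 50% of each list -0.16. Each rapamycin comparison shares its libraries with the knockdown comparisons.

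**Figure D3:**
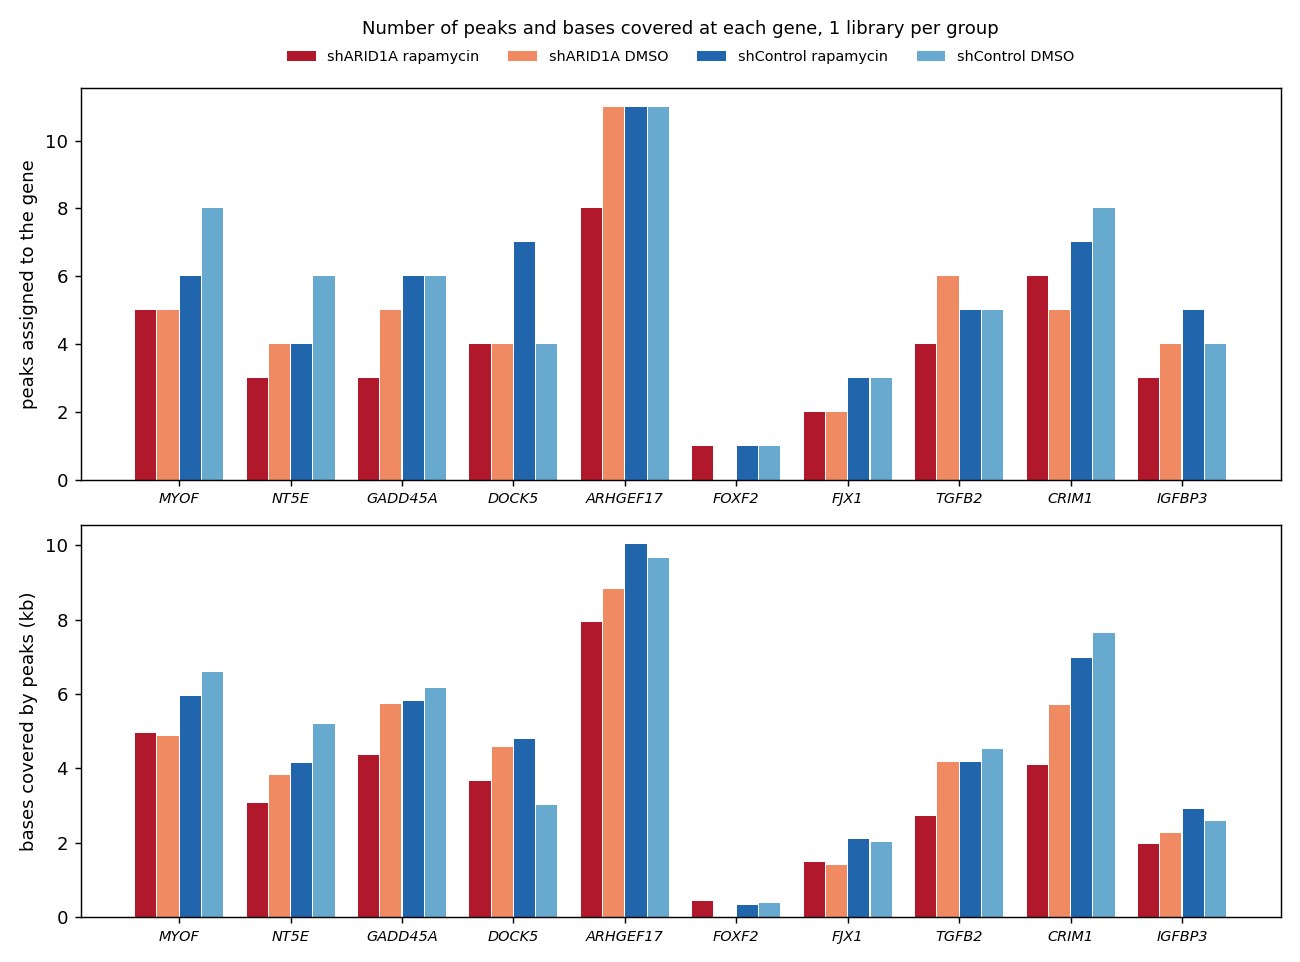
Peaks assigned to each gene (top, number) and bases they cover (bottom, kb), with bars for shARID1A rapamycin, shARID1A DMSO, shControl rapamycin and shControl DMSO, 1 library each. Over the 10 genes the bars sum to 39 peaks over 34.6 kb in shARID1A rapamycin, 46 over 41.3 kb in shARID1A DMSO, 55 over 47.2 kb in shControl rapamycin and 56 over 47.7 kb in shControl DMSO.

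**Figure D4:**
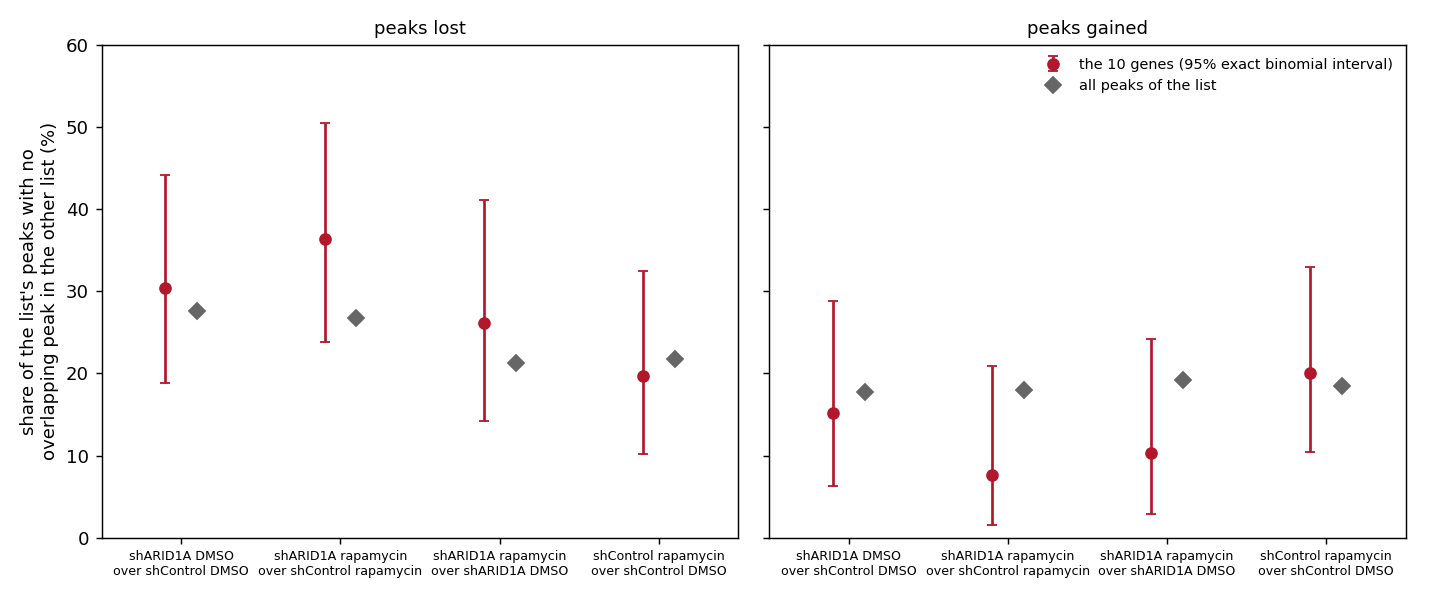
Share of peaks lost (left) and gained (right) in the 4 comparisons, in percent, for the 10 genes (circles with 95% exact binomial intervals) and for all peaks of the list (diamonds). Every interval holds its diamond, and the widest gaps are in the knockdown comparison under rapamycin, with 36.4% lost against 26.7% and 7.69% gained against 17.9%.

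Few of the lost peaks were strong, at these genes as over the whole lists. Of the 28 peaks of shControl DMSO in the stronger 50% of that list, 1 was lost in shARID1A DMSO (background 4.41%), the CRIM1 peak at +48.3 kb. Of 25 such peaks of shControl rapamycin 1 was lost in shARID1A rapamycin (background 4.22%), the GADD45A peak at +12.6 kb. Of 26 such peaks of shARID1A DMSO 0 were lost in shARID1A rapamycin (background 2.03%), with an exact 95% upper bound of 13.2%. Of 28 such peaks of shControl DMSO 2 were lost in shControl rapamycin (background 2.56%), the CRIM1 peak at +48.3 kb and the NT5E peak at +18.6 kb.

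By the lists in which a region had a peak, 27 of the 67 regions were in all 4, or 40.3% (28.5 to 53.0), against 45.2% of all regions. A further 9 were in both shControl lists and neither shARID1A list, or 13.4% (6.33 to 24.0), against 5.22% of all regions. The converse pattern, both shARID1A lists and neither shControl list, was found in 0 regions (exact 95% upper bound 5.36%), against 1.81% of all regions. The 9 regions lie at MYOF, NT5E, GADD45A, DOCK5, ARHGEF17, FJX1 and CRIM1, with 2 each at NT5E and DOCK5. All 9 are distal, as were 95.3% of all 3648 regions with this pattern, and they make 9 of 52 distal regions, against 6.44% of all distal regions. Of the 9, 6 are inside the gene, in intron 1 of MYOF, NT5E and DOCK5 and intron 2 of CRIM1. Of all 67 regions, 35 are inside the gene, not counting those within 1 kb of its start. The best ranks of the 9 ran between 50.1% and 83.1%, and 0 of 9 reached the stronger 50% of a list, where 16.2% of all regions with this pattern did. With equal numbers of top-scored peaks the count was 7 of 61 regions, against 4.02% of all. It was 6 if each skipped number of shARID1A DMSO is taken as a missing peak, since 3 of the 9, at ARHGEF17, DOCK5 (+20.8 kb) and GADD45A, lie beside one. The pattern by definition has no peak in shARID1A rapamycin either, so that absence adds nothing. The numbering of that list skips 0. When each list was cut to its stronger 50% before merging, 2 of 32 regions had this pattern, or 6.25%, against 6.57% of all, and 2 had the converse. A region counted there as absent from a list can have a peak below the cut, and these 2 regions are not among the 9. These patterns took part in the choice of the genes, and nothing is read from the background. The shControl lists are also the longer ones, and the part of read depth in the pattern was not tested.

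**Figure D5:**
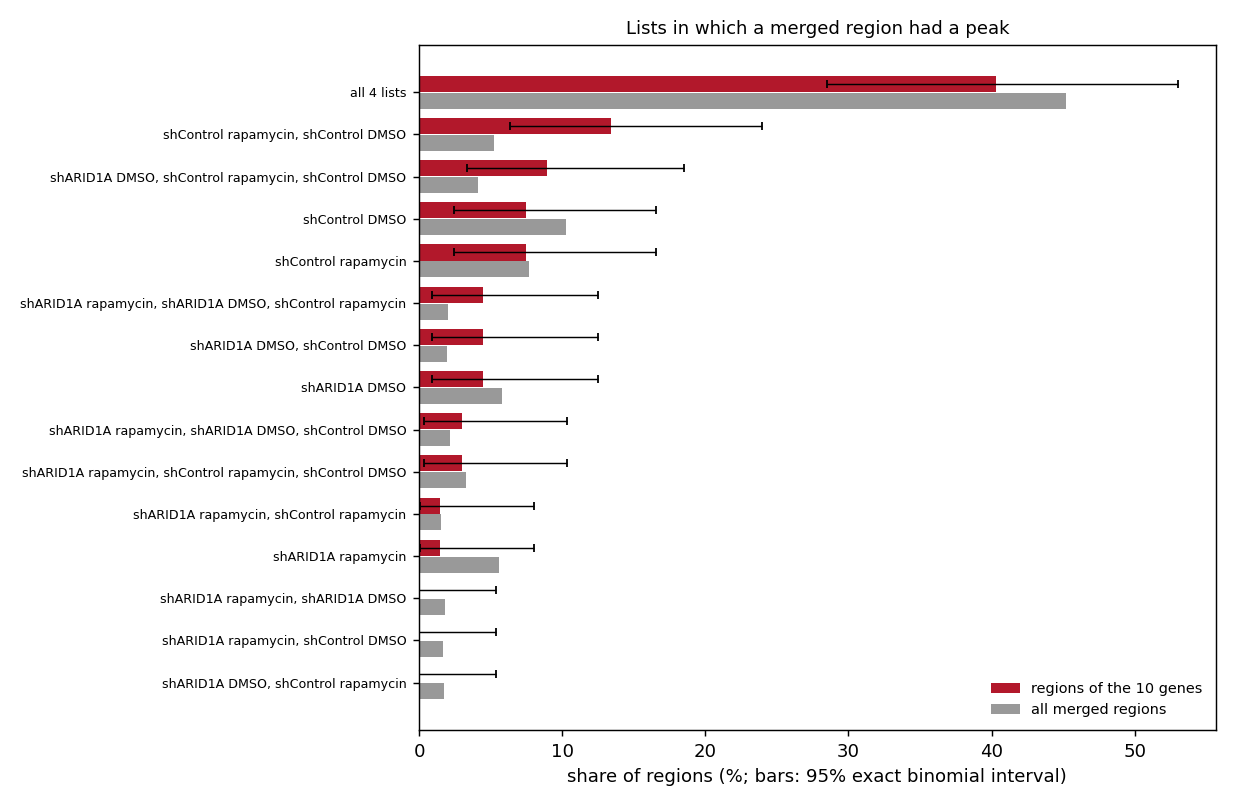
Share of regions, in percent, by the lists in which they had a peak, for the 67 regions of the 10 genes (red, with 95% exact binomial intervals) and for all 69838 regions (grey). For the pattern of both shControl lists only the red bar stands at 13.4% and the grey at 5.22%, and for both shARID1A lists only the red bar is empty. These patterns took part in the choice of the genes, and nothing is read from the difference.

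The other 31 regions had other incomplete patterns. A single list lacked a peak at 13 of them: shARID1A rapamycin at 6 (background 4.09%), shARID1A DMSO at 2 (3.28%), shControl rapamycin at 2 (2.13%) and shControl DMSO at 3 (2.01%). Regions absent from a shControl list but present in both shARID1A lists thus numbered 5, at DOCK5, ARHGEF17, NT5E and TGFB2. By treatment, 1 region was in both rapamycin lists only (background 1.56%), at FOXF2, and 3 were in both DMSO lists only (1.98%), at NT5E, MYOF and TGFB2. The remaining 14 were in a single list (background 29.3%). That list was shARID1A rapamycin for 1 region (5.58%), shARID1A DMSO for 3 (5.76%), shControl rapamycin for 5 (7.68%) and shControl DMSO for 5 (10.2%). The 6 regions missing in shARID1A rapamycin alone lie at ARHGEF17 and GADD45A with 2 each and at TGFB2 and IGFBP3. Among the 27 regions of all lists, 16 had a weaker rank in both shARID1A lists than in both shControl lists when ranks were taken in percent of the list length (background 32.6%), and 0 had a stronger one (background 14.4%). This count was made after the ranks were seen, and it depends on the scale: with ranks as places from the top, 8 were weaker, against 21.1% of all regions, and 3 stronger, against 25.2%. Of the 16 regions, 6 belong to ARHGEF17. In 1 of the 27, the ARHGEF17 region at +42.8 kb, the shControl DMSO peak overlapped that of shARID1A rapamycin but not those of the other lists.

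The remaining 12 genes of the signature, among them the canonical targets CCN1, CCN2 and ANKRD1, had 56 peaks within 50 kb in shARID1A rapamycin, 59 in shARID1A DMSO, 63 in shControl rapamycin and 65 in shControl DMSO, counted gene by gene. Of these 12, 8 had fewer and 2 more in shARID1A DMSO than in shControl DMSO, and 6 had fewer and 0 more in shARID1A rapamycin than in shControl rapamycin. The 12 factors and regulators of the pathway, from YAP1 and TEAD1 to TEAD4 to the kinases LATS1, STK3 and STK4, had 33 peaks in shARID1A rapamycin, 39 in shARID1A DMSO, 36 in shControl rapamycin and 42 in shControl DMSO. With knockdown 4 of them had fewer and 3 more in DMSO, and 3 fewer and 2 more in rapamycin. Over genes with a peak within 50 kb in either library, 33.4% had fewer and 24.5% more with knockdown in DMSO. Under rapamycin these shares were 33% and 22.7%. No difference between these gene lists and the 10 genes was tested.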

How the data were processed

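ATAC-seq libraries of shARID1A and shControl Huh7 cells, in rapamycin or DMSO, were represented by 1 deposited peak list each. Per the submitters' processing notes, BWA, MACS2 2.0 and the builds GRCh38 and hg38 were used. Their settings, any shift for the transposase, the handling of duplicates and mitochondrial reads, and the number of reads were not given in the sources used here, so a shorter list can come from less sequencing as well as from fewer open sites, and these cannot be told apart. Per the file headers, the lists hold peak numbers, positions, scores, annotations, the nearest gene and the distance to its TSS. The score is the authors' deposited value on an unstated scale, with a minimum of 1.30 or 1.31 in each list, and it served only for ranks and filters inside its own list. Positions are as deposited, with start and end both counted in.

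The 10 genes, the other gene lists and the comparisons were chosen with earlier results of these data known. A further hepatocyte marker of the list is not reported here. The TSS is the gene end of the RefSeq table of GRCh38.p14, with strand from its promoter table for 6 of the 10 genes and from the authors' distances for GADD45A, DOCK5, ARHGEF17 and CRIM1 (15843 and 2605 of all 18448 genes). A lost peak of the comparison list had no overlap of 1 bp or more with a peak of the first-named list, and a gained peak the reverse. Intervals are exact (Clopper-Pearson) binomial at 95%, for ratios conditional on the sum, and treat neighbouring peaks as independent. With 1 library per group no p-value was computed. All 10 genes are described, with every promoter region, the strongest distal region of each gene and every region absent from a list whose best rank was in the stronger 50%, and further regions chosen after their values were seen. Steps were tested on simulated peak lists. Alternatives were windows of 10 and 100 kb, nearest gene only, overlap of 50%, gaps of 200 bp, promoters of 500 bp and 2 kb, equal numbers of top-scored peaks (44760) and the stronger 50% of each list. Python 3.11.15, pandas 2.3.3, NumPy 2.4.6, SciPy 1.17.1 and matplotlib 3.10.9 were used.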

Additional observations from a re-analysis of the deposited data

Results flagged for a closer look

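At 3 genes the number of peaks within 50 kb differed in opposite directions in the 2 backgrounds of a contrast, with 1 library per group, and the difference was not tested. TGFB2 had 1 peak fewer in shARID1A than in shControl under rapamycin (difference -1) and 1 more in DMSO (difference 1). CRIM1 had 1 peak more in rapamycin than in DMSO in shARID1A cells (difference 1) and 1 fewer in shControl cells (difference -1). IGFBP3 had 1 fewer in rapamycin than in DMSO in shARID1A cells (difference -1) and 1 more in shControl cells (difference 1). Counted as merged regions, TGFB2 had 3 in shARID1A rapamycin, 5 in shARID1A DMSO, 4 in shControl rapamycin and 5 in shControl DMSO, and CRIM1 had 4 in shARID1A rapamycin, 5 in shARID1A DMSO, 7 in shControl rapamycin and 7 in shControl DMSO, so for these genes the opposite directions were not present in merged regions. IGFBP3 had 3 in shARID1A rapamycin, 4 in shARID1A DMSO, 5 in shControl rapamycin and 4 in shControl DMSO, and the opposite directions remained.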

How the results depend on the processing

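The log2 ratios of peak numbers kept their sign under every alternative in the comparisons of shARID1A DMSO over shControl DMSO (-0.53 to -0.03), shARID1A rapamycin over shControl rapamycin (-0.62 to -0.32) and shARID1A rapamycin over shARID1A DMSO (-0.38 to -0.15), while that of shControl rapamycin over shControl DMSO ran from -0.16 to 0.09. Of 116 alternatives 112 left the value inside the interval of the reported one or within 1.5 times a reported count. In the stronger 50% of each list, gained peaks were 0% for shARID1A rapamycin over shARID1A DMSO (0 of 20, exact 95% upper bound 16.8%) and 8% for shControl rapamycin over shControl DMSO (2 of 25), and regions of the shControl lists only were 2. All lists were cut in this setting, so a peak counted as absent can lie below the cut. Counted as places from the top, 8 regions ranked weaker in both shARID1A lists. The share lost ran from 21.4% to 38.5% for knockdown in DMSO and from 28.0% to 45.9% for knockdown in rapamycin, highest by nearest gene alone. Genes with a promoter peak numbered 6 to 9 in all alternatives. Merged regions, covered bases, skipped numbers and the alternatives for the patterns and rank orders were chosen after seeing the data. No paired analysis was possible because the labels give no replicate numbers and each group held 1 library. The read depth is unknown, and the 39 to 56 peaks of a list limit the precision of every share.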
